A study of Mus musculus with 52 samples.

Results

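Within each treatment group of a mouse mammary tumour series, tumours were compared whose RNA held the most and the least of 3 interferon-gamma response transcripts, Cxcl9, Irf1 and Gbp2. Libraries were chosen by a score, the mean of log2(TPM + 1) over the 3 transcripts, where TPM is a level scaled for gene length and for the library's total. In each of the 6 groups the libraries with the highest and the lowest scores, a number of n divided by 3 and rounded down at each end, were taken as high and low. This selected 15 high and 15 low libraries of 52 in all and left 22 in the middle. Because the 3 genes chose the libraries, their own difference is a description and carries no test.

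All tumours grew from cells of 4T1, a mouse mammary carcinoma line, after 100000 cells were placed in the 4th left mammary fat pad of Balb/C mice, and were collected at a volume of no more than about 150 mm3. A single antibody was given to each mouse by intraperitoneal injection, 200 µg at a time, in 3 doses on days 7, 10 and 13. Aged mice, over 12 months old, received anti-CTLA4 of clone 9D9 (8 libraries), anti-PD-L1 of clone 10F.9G2 (8) or the isotype control of clone LTF-2 (7). Young mice, 8 to 10 weeks old by the sample labels and up to 12 weeks by the protocol, received the same antibodies (12, 10 and 7 libraries). High and low libraries numbered 2 and 2 in the 3 aged groups and in young isotype, 4 and 4 in young anti-CTLA4, and 3 and 3 in young anti-PD-L1. Both classes therefore held the same mixture of ages and antibodies, but not of sequencing batches, of which batches 1, 2 and 3 held 4, 6 and 5 high libraries and 8, 6 and 1 low libraries. No untreated tumour was part of the comparison. Total counts ran from 9549847 to 53778370 per library over all 52, with a median of 20665734. The labels call the libraries of a group biological replicates without naming the animal, so that a p-value rests on how far these libraries vary.

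Interferon-gamma is a cytokine made mainly by activated T cells and natural killer cells. Its receptor acts through the kinases JAK1 and JAK2 on factors that bind GAS elements (gamma-activated sites) and induce IRF1, itself a factor that binds ISRE elements (interferon-stimulated response elements). The induced genes encode chemokines that call in T cells, guanylate-binding proteins and other GTPases that attack intracellular pathogens, the machinery of antigen presentation, and brakes such as PD-L1. Many of these genes also respond to type I interferon, so their transcripts alone do not name the cytokine.

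**Figure D1:**
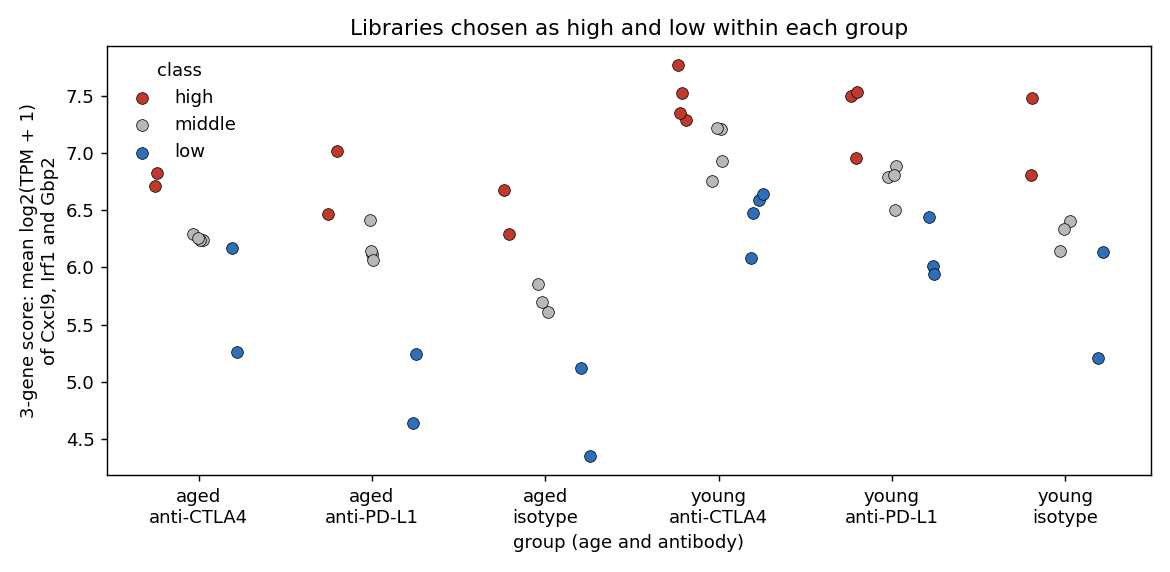
Score of every library, the mean log2(TPM + 1) of Cxcl9, Irf1 and Gbp2, by group of age and antibody, coloured by class. The lowest high library of aged anti-PD-L1 lies 0.05 above the nearest middle library, and the gap at that place is 0.44 in aged isotype.

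The scores of the high libraries ran from 6.29 through a median of 7.01 to 7.76, and those of the low libraries from 4.35 through 6.01 to 6.64. The classes overlapped between groups, because the choice was made within each group. Gbp2, a guanylate-binding protein, had a median of 153 TPM (range 63.7 to 283) in high libraries and 44.7 TPM (17.6 to 88.4) in low libraries. Irf1 had a median of 168 TPM (84.6 to 224) in high and 81.8 TPM (37.4 to 127) in low libraries. Cxcl9, a chemokine for T cells, had a median of 105 TPM (69.7 to 238) in high and 58.4 TPM (10.4 to 129) in low libraries. At the edges of the choice, the gap between the lowest high and the highest middle library was 0.05 to 0.44 on the score, and the gap between the lowest middle and the highest low library was 0.01 to 0.82.

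A property of the libraries moved with the classes and touches every result that follows. The length trend of a library is the slope of its log2 CPM (counts scaled to the TMM-normalized library total), relative to the average library, on log2 gene length. A positive slope means relatively more counts of long genes. Its median was 0.12 in high libraries (range -0.08 to 0.29) and -0.15 in low libraries (-0.51 to 0.18), and its mean was above that of the low libraries in 6 of 6 groups (exact permutation test of the difference in means within groups over 1814400 assignments, two-sided, adjusted p = 0.000228). The TMM scaling factor averaged 1.08 ± 0.08 in high and 0.96 ± 0.13 in low libraries (SD, n = 15 each; exact permutation test, adjusted p = 0.00338) and was higher in 5 of 6 groups. Total counts had medians of 22314653 in high and 16327009 in low libraries (exact permutation test, adjusted p = 0.0462), with a higher mean in 3 of 6 groups.

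The TPM scale and the TMM-normalized CPM scale differed by a library-specific amount that also moved with the classes. The score on the TPM scale minus the mean log2 CPM of the same 3 genes averaged -0.82 ± 0.22 in high libraries and -1.28 ± 0.40 in low libraries (SD, n = 15 each). High minus low, the TPM score differed by 1.33 and the CPM score by 0.87. When the same rule was applied to the CPM score, 8 of the 15 high libraries stayed high, 5 moved to the middle and 2 moved to low. Of the 15 low libraries 10 stayed low, 4 moved to the middle and 1 moved to high. The counts of most lists are therefore given for the classes of the TPM score, for the same classes with the length trend as a term of the fit, and for the classes of the CPM score. A value given for the TPM score alone is not thereby shown to hold in the other 2. What part of a result the length trend makes was not tested.

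**Figure D2:**
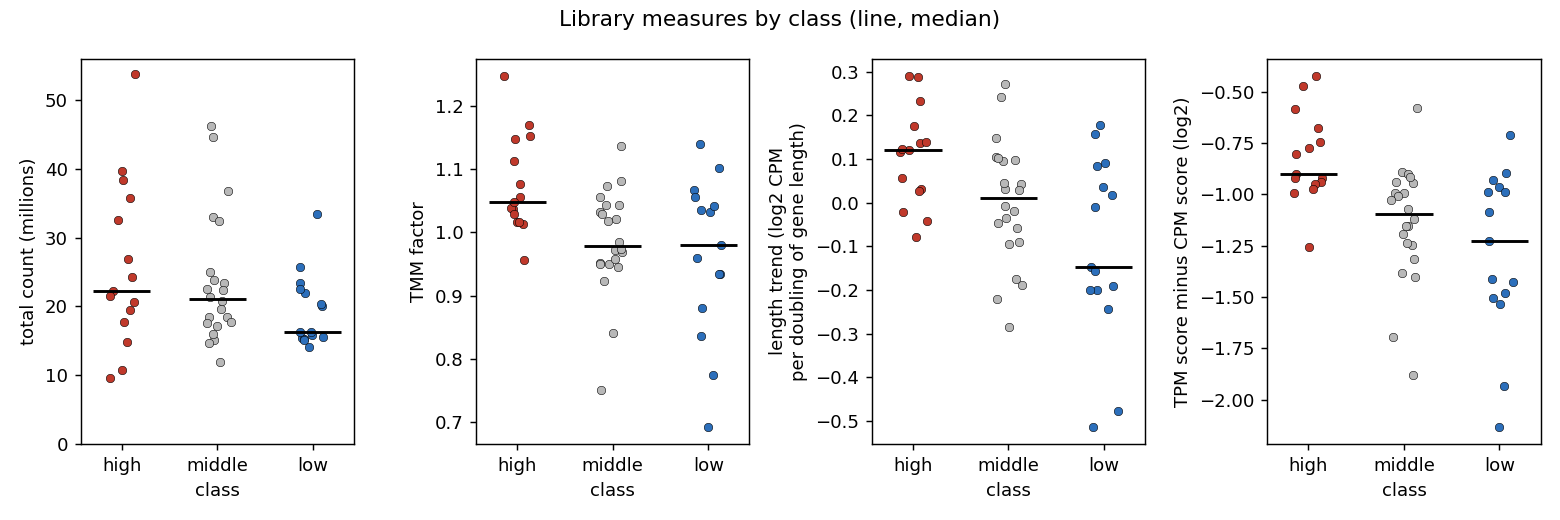
Total count, TMM factor, length trend (log2 CPM per doubling of gene length) and the TPM score minus the CPM score (log2), each point 1 library of the high, middle and low classes, with the median as a line. The median length trend is 0.12 in high and -0.15 in low libraries.

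Across 15998 genes other than the 3, 2076 were higher in high libraries (13.0% of those tested) and 2599 were lower (16.2%) at an adjusted p under 0.05 (edgeR quasi-likelihood test with terms for group and sequencing batch, Benjamini-Hochberg adjustment). With the length trend as a term, 240 genes were higher (1.50%) and 92 lower (0.575%), of which 141 and 59 were also called without it. With the classes of the CPM score, 31 genes were higher (0.194%) and 0 were lower (0%), and 25 of the 31 were also called with the TPM score. At an unadjusted p under 0.05, that last fit held 513 genes in either direction. With the CPM score as a continuous term over all 52 libraries, an alternative chosen after seeing the data, 177 genes were higher (1.11%) and 1, Zfp882, was lower (0.00625%). The large counts of the TPM score thus did not hold on the other scale. These shares over all genes tested are the background for the counts of each list below. Called higher in all 3 fits, with the TPM score, with the length trend and with the CPM score, were 25 genes, and 0 genes were lower in all 3. The 25 included the listed GTPases Irgm1, Irgm2, Igtp, Iigp1, Tgtp1, Tgtp2, Gbp2b, Gbp3, Gbp4, Gbp10 and Gbp11. Gm43302 and Gm12250, which bear the symbols of predicted models and stand in no list, were also among them. The rest were Cxcl10, Il18bp, Tapbpl, Batf2, Irf9, Ifit1, Usp18, Parp9, Slamf8, Tmem140, Fgl2 and Trafd1.

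Interferon-inducible GTPases, which coat and disrupt the membranes around intracellular microbes, were higher in high libraries for most members in each of these 3 fits. Of 17 tested members 15 were higher and 0 were lower with the TPM score. With the length trend 15 were higher and with the CPM score 11. Shares of all genes tested called higher were 13.0%, 1.50% and 0.194% in the 3 fits. The list's median log2 fold change was 1.15, 1.40 and 1.11 in the 3 fits, beside 0.02, -0.00 and 0.00 over all genes tested. Gbp2 is left out of these counts, and a further listed gene, Gvin1, was not among the genes tested.

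Irgm2, an immunity-related GTPase, ran from 89.8 through a median of 149 to 230 CPM in high libraries and from 23.4 through 72.4 to 150 CPM in low libraries. In all 6 groups every high library exceeded every low library of that group, although the 2 ranges overlapped across groups. The log2 fold change was 1.23 ± 0.16 (SE; edgeR adjusted p = 0.00012), and 1.04 (adjusted p = 0.0045) with the CPM score. Irgm1, its relative in the regulation of these GTPases, averaged 184 ± 59.5 CPM in high and 91.2 ± 42.3 CPM in low libraries (SD, n = 15 each) and was likewise separate in all 6 groups. The difference was 1.06 ± 0.13 on the log2 scale (SE; edgeR adjusted p = 0.00012). Gbp2b, a guanylate-binding protein closely related in sequence to Gbp2, ran from 132 through 284 to 676 CPM in high libraries and from 51.0 through 129 to 282 CPM in low libraries. A log2 fold change of 1.23 was found (edgeR adjusted p = 0.00035) with the TPM score and 1.19 (adjusted p = 0.0011) with the CPM score, the smallest adjusted p of that fit. Reads of Gbp2b and Gbp2 can be shared by the quantification, so it is uncertain as evidence apart from Gbp2.

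Gbp6 ran from 18.2 through 31.7 to 68.1 CPM in high libraries and from 4.19 through 9.38 to 18.4 CPM in low libraries. It was higher by 1.61 ± 0.21 on the log2 scale (SE; edgeR adjusted p = 0.00019), and by 1.12 with the CPM score, where it missed the threshold (adjusted p = 0.081). Igtp (Irgm3), Gbp3, Gbp10 and Gbp11 were higher in all 3 fits, with log2 fold changes of 1.09, 1.05, 1.34 and 1.34 with the TPM score. Gbp6 and Gbp10 are close paralogs, as are Tgtp1 and Tgtp2, and how the deposited counts divide such reads is uncertain. Gbp8 and Ifi47 were the 2 members that missed the threshold with the TPM score, at log2 fold changes of 0.15 and 0.57. Ifi47 passed with the length trend (edgeR adjusted p = 0.0025) and missed with the CPM score (adjusted p = 0.061).

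**Figure D3:**
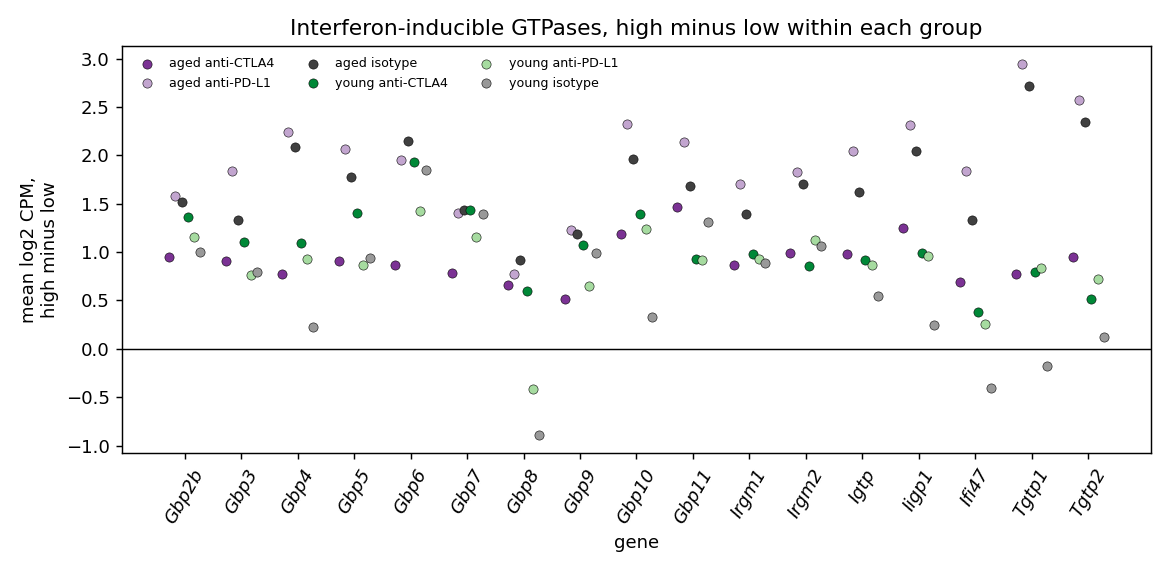
Mean log2 CPM in high minus low libraries for 17 interferon-inducible GTPases, 1 point per group of age and antibody, without a batch term. Of 102 values 98 lie above 0, and the 4 below 0 belong to Gbp8, Ifi47 and Tgtp1 in young isotype and to Gbp8 in young anti-PD-L1.

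The GTPase differences had the same sign in nearly all groups and were not of one size. The median over the 17 genes of high minus low was 0.91 in aged anti-CTLA4, 1.96 in aged anti-PD-L1, 1.69 in aged isotype, 0.99 in young anti-CTLA4, 0.92 in young anti-PD-L1 and 0.80 in young isotype. The same median over all genes tested was 0.02, 0.02, 0.06, 0.15, 0.01 and 0.13 in that order of groups. For 14 of 17 genes the difference was above 0 in all 6 groups. Differences within single groups, and statements that libraries were separate in a group, carry no batch term throughout. In young anti-CTLA4, 3 of 4 low libraries were of batch 1 and 3 of 4 high libraries of batch 3. In aged anti-CTLA4 both low libraries were of batch 1, and 1 high library was of batch 3. In the sequencing batches, batch 1 held both classes in the aged groups only and gave a GTPase median of 1.38 with 17 of 17 above 0 and 0 called, and batch 2 held young mice only and gave 0.89 with 10 of 17 called higher. In batch 3 both classes met in 1 group, aged isotype, with 1 library each. Over all 15998 genes, 44 (0.275%) had every high library above every low library in each group and 19 (0.119%) had every high library below. Among the 44 were Irgm1, Irgm2, Gbp3, Gbp2b, Irf2, Tapbp, Tap2, Erap1, Ifih1, Parp9, Lgals3bp and C3ar1. Most of the 44 stood in none of the gene lists, among them Vps41, Trip12, Usp8, Scamp2, Man2b1, Dip2c and Vwa8.

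Promoter sequences are shown for genes whose transcripts carry the comparison: Irf1, which helped to choose the libraries, and Igtp, Irgm2, Gbp2b and Cxcl10, which were called in all 3 fits. Each line holds the 250 bases before a RefSeq transcription start, 5′ to 3′ on the gene's strand (build GRCm38.p6). Capitals mark matches to a GAS-like motif, TTCNNNGAA, or an ISRE-like motif, GAAANNGAA, searched on both strands. Irf1 has a further window (chr11:53770223-53770472) that holds neither motif and is not shown. In the windows shown no 2 matches share bases.
Irf1 (chr11:53769764-53770013, plus strand, GAS-like match 90 bases before the start): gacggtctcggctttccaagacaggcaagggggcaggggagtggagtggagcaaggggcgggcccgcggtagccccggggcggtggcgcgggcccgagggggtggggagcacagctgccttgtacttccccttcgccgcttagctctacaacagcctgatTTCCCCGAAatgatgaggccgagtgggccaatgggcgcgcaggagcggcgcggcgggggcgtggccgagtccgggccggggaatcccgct
Igtp (chr11:58199306-58199555, plus strand, GAS-like match at 45 and ISRE-like match at 34 bases before the start): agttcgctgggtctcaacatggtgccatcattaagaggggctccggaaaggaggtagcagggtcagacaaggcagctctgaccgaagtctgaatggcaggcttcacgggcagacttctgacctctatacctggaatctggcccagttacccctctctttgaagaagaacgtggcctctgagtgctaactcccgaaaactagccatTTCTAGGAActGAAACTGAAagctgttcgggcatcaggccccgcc
Irgm2 (chr11:58214727-58214976, plus strand, GAS-like match at 75 and ISRE-like match at 64 bases before the start): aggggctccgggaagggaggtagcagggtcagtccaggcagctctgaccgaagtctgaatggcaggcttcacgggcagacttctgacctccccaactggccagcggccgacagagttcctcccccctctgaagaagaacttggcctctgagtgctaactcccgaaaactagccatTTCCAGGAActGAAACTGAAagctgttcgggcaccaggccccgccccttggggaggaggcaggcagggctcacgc
Gbp2b (chr3:142594597-142594846, plus strand, ISRE-like match at 136 bases before the start): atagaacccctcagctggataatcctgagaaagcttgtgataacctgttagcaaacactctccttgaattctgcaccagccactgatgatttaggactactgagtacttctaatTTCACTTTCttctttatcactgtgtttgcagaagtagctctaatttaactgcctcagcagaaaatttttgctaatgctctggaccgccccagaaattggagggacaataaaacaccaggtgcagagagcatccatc
Cxcl10 (chr5:92348890-92349139, minus strand, ISRE-like match at 213 bases before the start): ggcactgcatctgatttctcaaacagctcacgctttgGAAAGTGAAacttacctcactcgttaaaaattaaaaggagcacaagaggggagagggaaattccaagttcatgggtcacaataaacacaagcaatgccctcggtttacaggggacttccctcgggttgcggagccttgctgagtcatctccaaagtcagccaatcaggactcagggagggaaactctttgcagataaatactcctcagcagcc

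The windows of Igtp and Irgm2 hold the same order of a GAS-like and an ISRE-like match, 11 bases apart from first base to first base. The windows of Tgtp1 and Tgtp2, not shown, hold the same order at the same spacing. Long stretches of the Igtp and Irgm2 windows are the same bases, so their matches are not independent of each other. Of 32851 windows in the RefSeq table, 7.02% held a GAS-like match and 7.13% an ISRE-like match. Of the 25 genes called in all 3 fits, 16 had at least 1 window, 19 windows in all, of which 6 held a GAS-like and 12 an ISRE-like match. The windows of Il18bp, Irf9 and Trafd1 held neither, whereas each window shown above holds at least 1 match. These matches are letters in a short window and do not show that a factor was bound.

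The transcript of the ligand overlapped widely between the classes. Ifng ran from 1.07 through a median of 3.36 to 9.64 CPM in high libraries and from 0.11 through 2.01 to 18.5 CPM in low libraries. The low libraries held both the lowest and the highest value. The log2 fold change of 0.94 ± 0.37 (SE) missed the threshold with the TPM score (edgeR adjusted p = 0.056) and was 1.88 (adjusted p = 0.014) with the length trend and 1.47 (adjusted p = 0.026) with the CPM score. Of 13 tested genes of the ligand, its inducers and the type 1 lymphocyte programme, 2 were higher and 2 lower with the TPM score, at a list median of 0.23, beside 13.0% and 16.2% over all genes tested. With the length trend 2 were higher and 0 lower, and with the CPM score 1 and 0. These 2 fits called 1.50% and 0.194% of all genes tested higher. Il12rb1 and Il12rb2, the chains of the receptor for interleukin 12, were higher, by 1.04 (edgeR adjusted p = 0.0025) and 0.99 (adjusted p = 0.034) on the log2 scale with the TPM score. Il12rb1 passed with the length trend at 1.15 and missed at 0.72 with the CPM score (edgeR adjusted p = 0.49), and Il12rb2 missed in both, at 0.78 (adjusted p = 0.37) and 0.52 (adjusted p = 1). Il18 and Il15, cytokines that raise interferon-gamma output, were lower, with log2 fold changes of -0.63 (edgeR adjusted p = 0.021) and -0.45 (adjusted p = 0.041). Both stood above 0 with the CPM score, at 0.01 and 0.34, and neither passed.

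Genes of the receptor, its signalling and its feedback were higher in 8 of 11 cases and lower in 0 with the TPM score, at a median log2 fold change of 0.38. With the length trend 2 were higher, at a median of 0.22, and with the CPM score 0, at a median of 0.08. The 3 fits called 13.0%, 1.50% and 0.194% of all genes tested higher. The kinase gene Jak2 and the feedback inhibitor genes Socs3 and Cish were higher by 0.43, 0.34 and 0.76 on the log2 scale with the TPM score, and none of these 3 passed in either other fit.

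Of 14 factors of the IRF and STAT families and their co-activators, 7 were higher and 1 lower with the TPM score. Counts were 3 and 0 with the length trend, and 2 and 0 with the CPM score. Over all genes tested, 13.0%, 1.50% and 0.194% were called higher and 16.2%, 0.575% and 0% lower in the same order. Irf2, which competes with IRF1 for its sites, had a median of 47.0 CPM in high and 29.1 CPM in low libraries and was separate in all 6 groups (log2 fold change 0.71, edgeR adjusted p = 0.0012). It missed the threshold at 0.42 with the length trend and at 0.13 with the CPM score. Irf9, which with STAT2 is part of a complex that binds ISRE elements, was higher in all 3 fits, by 0.34, 0.55 and 0.38 on the log2 scale. Batf2, a leucine zipper factor induced by interferon-gamma, was higher in all 3 by 1.12, 1.31 and 1.06. Stat2 was higher by 0.73 (edgeR adjusted p = 0.0018) with the TPM score and missed the threshold in the other 2 fits.

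**Figure D4:**
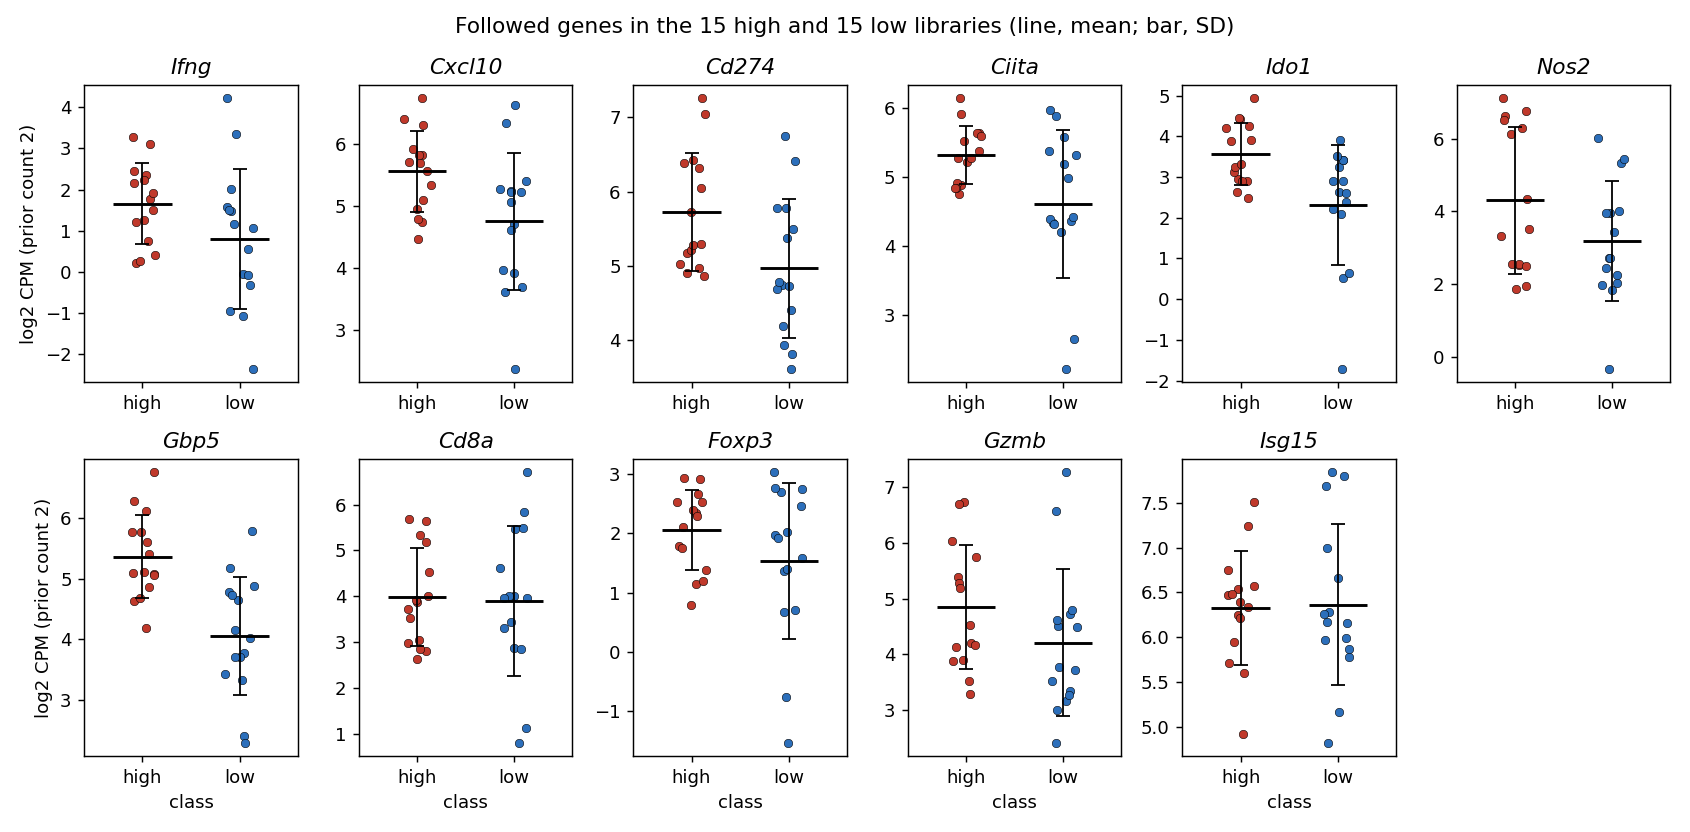
Log2 CPM (prior count 2) of 11 genes in the 15 high and 15 low libraries, each point 1 library, with the mean as a line and the SD as a bar. Gbp5 and Ido1 lie higher in high libraries, and Cd8a, Foxp3 and Isg15 overlap over most of their ranges.

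Among chemokines of T cells and their receptors, 1 of 9 was higher with the TPM score and 2 with each of the other fits. The count with the TPM score was near the 13.0% called higher over all genes tested. That share was 1.50% with the length trend and 0.194% with the CPM score. Cxcl10, a CXCR3 ligand that draws in T cells, ran from 22 through 51.6 to 106 CPM in high libraries and from 5.07 through 33.1 to 99.1 CPM in low libraries. The ranges overlapped widely, and 13 of 15 high libraries lay above the low median of their group. Its log2 fold change was 0.76 ± 0.24 (SE; edgeR adjusted p = 0.023) with the TPM score, 1.31 (adjusted p = 0.014) with the length trend and 1.21 (adjusted p = 0.002) with the CPM score. Without aged anti-PD-L1 or without aged isotype it missed the threshold with the TPM score, at 0.52 and 0.70. Cxcl11, a further ligand of CXCR3, was 0.54 (edgeR adjusted p = 0.22) with the TPM score and 1.56 (adjusted p = 0.011) with the CPM score.

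MHC class I presentation was higher in 13 of 21 genes and lower in 0 with the TPM score (median log2 fold change 0.33), in 18 with the length trend (0.73) and in 2 with the CPM score (0.44). Over all genes tested these fits called 13.0%, 1.50% and 0.194% higher. Tapbp, tapasin, which loads peptides on class I molecules, had the smallest p of the whole comparison. It ran from 254 through 482 to 682 CPM in high libraries and from 145 through 284 to 475 CPM in low libraries, and was separate in all 6 groups. Its log2 fold change was 0.69 ± 0.08 (SE; edgeR adjusted p = 0.00012), and 0.35 with the CPM score, where it missed the threshold (adjusted p = 0.84). Erap1, the peptidase that trims those peptides, averaged 80.8 ± 13.9 CPM in high and 45.0 ± 11.0 CPM in low libraries (SD, n = 15 each; log2 fold change 0.76, edgeR adjusted p = 0.00019). Tap2, a subunit of the peptide transporter, and H2-Q4, a class I heavy chain, were higher by 0.75 and 0.60 (edgeR adjusted p = 0.00055 and 0.00049). Erap1, Tap2 and H2-Q4 had log2 fold changes of 0.23, 0.41 and 0.44 with the CPM score and did not pass, but passed with the length trend. H2-T23, the nonclassical molecule Qa-1, missed the threshold with the TPM score (0.42, edgeR adjusted p = 0.057) and passed with the CPM score (0.64, adjusted p = 0.011).

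Class II presentation, which serves CD4 T cells, had 1 of 14 genes higher and 1 lower with the TPM score, 7 higher with the length trend and 0 with the CPM score. Both counts of the TPM score were below the shares over all genes tested, 13.0% higher and 16.2% lower. The share called higher with the length trend was 1.50%. Ciita, the master activator of class II genes, had a median of 38.8 CPM in high and 21.3 CPM in low libraries and a log2 fold change of 0.73 ± 0.31 that missed the threshold (SE; edgeR adjusted p = 0.077). Cd74, the invariant chain, was higher by 0.79 (edgeR adjusted p = 0.015) and Rfxank, a subunit of the factor that binds class II promoters, was lower with a log2 fold change of -0.33 (adjusted p = 0.019), both with the TPM score. Cd74 passed with the length trend at 1.29 and missed with the CPM score at 0.54, and Rfxank missed in both, at -0.04 and 0.03. The protease Ctss passed with the length trend (edgeR adjusted p = 0.0026) and with neither score alone.

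Checkpoint genes were higher in 6 of 17 cases with the TPM score, in 3 with the length trend and in 0 with the CPM score, beside 0 lower in each. All genes tested were called higher at 13.0%, 1.50% and 0.194% in the same order of fits. Cd274, which encodes PD-L1, ran from 29.1 through 39.3 to 153 CPM in high libraries and from 12.2 through 26.8 to 107 CPM in low libraries. Its log2 fold change was 0.73 ± 0.19 (SE; edgeR adjusted p = 0.0076) and was of the same size with the CPM score, 0.73, where it missed the threshold (adjusted p = 0.061). Without aged isotype it was 0.64 and missed the threshold with the TPM score. Pdcd1lg2, which encodes PD-L2, was higher by 1.18 (edgeR adjusted p = 0.0074), and Tigit and Lgals9 by 0.91 and 0.30. Pdcd1lg2 and Lgals9 also passed with the length trend and Tigit did not, and with the CPM score these 3 stood at 1.15, 0.15 and 0.55 without passing. Anti-PD-L1 was the treatment of 2 of the 6 groups, and classes were balanced within them.

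Of 10 effector genes of the response 4 were higher with the TPM score, 2 with the length trend and 0 with the CPM score. Beside these counts, 13.0%, 1.50% and 0.194% of all genes tested were called higher. Ido1, which breaks down tryptophan, ran from 5.55 through 9.94 to 30.4 CPM in high libraries and from 0.22 through 6.16 to 15.1 CPM in low libraries, and was higher by 1.46 ± 0.28 on the log2 scale (SE; edgeR adjusted p = 0.0018). Gbp5, one of the GTPases counted above, which promotes inflammasome assembly, had a median of 34.7 CPM in high and 16.2 CPM in low libraries (log2 fold change 1.22, edgeR adjusted p = 0.0014). Nos2, inducible nitric oxide synthase, ran from 3.59 through 11.3 to 137 CPM in high libraries and from 0.72 through 6.53 to 64.5 CPM in low libraries (log2 fold change 1.23 ± 0.38, SE; edgeR adjusted p = 0.018). Wars, the tryptophanyl-tRNA synthetase induced by interferon-gamma, was higher by 0.58 (edgeR adjusted p = 0.00069). With the length trend Ido1, Gbp5 and Wars passed, at 1.68, 1.34 and 0.41, and Nos2 missed at 0.98 (edgeR adjusted p = 0.31). On the CPM score, Ido1, Gbp5, Nos2 and Wars had log2 fold changes of 1.10, 0.94, 0.72 and 0.23, and none of these 4 passed.

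Il18bp, the secreted decoy that neutralizes interleukin 18, was higher in all 3 fits, by 0.91, 1.50 and 1.02 on the log2 scale (edgeR adjusted p = 0.0032, 0.0002 and 0.0045). Tnfsf10, the death ligand TRAIL, was higher by 1.06 (edgeR adjusted p = 0.0012) with the TPM score and by 1.38 (adjusted p = 0.00093) with the length trend. It missed the threshold with the CPM score, at 0.80. Both belong to a list of 13 death and inflammasome genes, of which 4, 7 and 2 were higher and 0 lower in the 3 fits. The complement list had 7 of 11 genes higher with the TPM score, 3 with the length trend and 0 with the CPM score. Shares called higher over all genes tested were 13.0%, 1.50% and 0.194%. C1ra, a protease of the first complement component, was higher by 1.04 and C3ar1, the receptor of a complement fragment, by 0.52 with the TPM score. Both passed with the length trend, and with the CPM score they stood at 0.38 and 0.09 (edgeR adjusted p = 1 for each).

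Genes known for type I interferon moved as well. Of 24 tested, 12 were higher and 1 lower with the TPM score (median 0.51). With the length trend 10 were higher (0.69) and with the CPM score 2 (0.55). All genes tested were called higher at 13.0%, 1.50% and 0.194% in these fits, and lower at 16.2% with the TPM score. With the CPM score 24 of 24 stood above 0, beside 8187 of 15998 genes tested. Ifih1, an RNA sensor, was higher by 0.60 ± 0.09 (SE; edgeR adjusted p = 0.00049) and separate in all 6 groups. It passed with the length trend and missed with the CPM score, at 0.33. Oasl2 was higher by 0.95 with the TPM score (edgeR adjusted p = 0.0014) and missed in the other fits, at 0.69 and 0.70, and Ifit1 was higher in all 3 fits, by 0.82, 0.96 and 0.92. Isg15, the ubiquitin-like modifier, had medians of 84.2 CPM in high and 72.1 CPM in low libraries and a difference of -0.16 ± 0.24 on the log2 scale (SE; edgeR adjusted p = 0.65), against 0.61 (adjusted p = 0.16) with the length trend and 0.77 (adjusted p = 0.43) with the CPM score. Usp18, which removes ISG15 from proteins, was higher in all 3 fits by 0.48, 0.90 and 0.72. The levels of Isg15 overlapped almost wholly between the classes.

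Outside the lists, Tgm2 (transglutaminase 2), Parp9 and Dtx3l (partners in ADP-ribosylation at interferon-induced genes) and Lgals3bp (a secreted binder of galectins) stood among the 10 higher genes of smallest p. Tgm2 averaged 393 ± 131 CPM in high and 214 ± 84.7 CPM in low libraries (SD, n = 15 each), a log2 fold change of 0.90 (edgeR adjusted p = 0.00012). It passed with the length trend at 0.71 and missed with the CPM score at 0.32. Parp9 was higher in all 3 fits, by 0.52, 0.64 and 0.45, and Slamf8, a receptor of myeloid cells, by 0.50, 1.03 and 0.74. Dtx3l and Lgals3bp were higher by 0.82 and 0.75 with the TPM score and by 0.58 and 0.83 with the length trend, and with the CPM score they had log2 fold changes of 0.39 and 0.40 and did not pass.

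Of the 10 lower genes of smallest p, 6 were also lower with the length trend and 0 with the CPM score. Ccnb1ip1, which acts in meiotic crossing over, had medians of 3.52 CPM in high and 6.45 CPM in low libraries, every high library lying below every low library in all 6 groups (log2 fold change -1.02 ± 0.14, SE; edgeR adjusted p = 0.00025). On the CPM score it stood at -0.02. Alpk2, an alpha-kinase, had medians of 0.68 CPM in high and 2.93 CPM in low libraries, a log2 fold change of -1.84, and -0.30 with the CPM score. The others were Acyp1, Zan, BC051077, Dynlt1c, Rps12-ps10, Snord104, Plac9b and Pcgf1, with log2 fold changes from -1.85 to -0.74. On the CPM score they ran from -0.44 to 0.32. Rps12-ps10 is a pseudogene and Snord104 a small RNA that lies within a longer gene, and their counts are uncertain.

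Ribosomal protein transcripts, which are short and abundant, were called lower in high libraries with the TPM score only. Of 26 cytosolic ribosomal protein genes 25 were lower and 0 higher, with a median log2 fold change of -0.89. The median was -0.25 with the length trend and 0.17 with the CPM score, and 0 of 26 passed in either. Above 0 stood 1 of 26 with the length trend and 25 of 26 with the CPM score. Rps14 had medians of 837 CPM in high and 1867 CPM in low libraries, and a log2 fold change of -1.20 (edgeR adjusted p = 0.0018) with the TPM score against 0.20 (adjusted p = 1) with the CPM score. Of 26 nuclear-encoded respiratory chain genes 16 were lower and 1 higher with the TPM score and 0 passed in the other fits. Across all genes tested, 16.2% were called lower and 13.0% higher with the TPM score. Ndufa4, of that chain, had a log2 fold change of -1.03 with the TPM score and 0.10 with the CPM score. The median for ribosomal protein genes was -0.27, -0.27 and -0.44 in the aged anti-CTLA4, anti-PD-L1 and isotype groups and -1.14, -1.04 and -1.78 in the young groups in the same order. The length trend moved with these values, and its part in them was not tested.

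Some stromal markers were higher with the TPM score, and the medians of their lists were at most 0.12 in the other 2 fits. Fibroblast markers were higher in 6 of 16 cases with the TPM score (median 0.49), endothelial markers in 7 of 14 with 1 lower (0.44), and genes of TGF-beta and extracellular matrix in 8 of 21 (0.38), beside 13.0% called higher over all genes tested. With the length trend these medians were 0.05, 0.12 and -0.00, and 0, 0 and 1 genes passed. On the CPM score they were -0.07, -0.16 and -0.01, and 0 genes passed. In whole tumours, fewer cells of a type and less RNA per cell cannot be told apart. Pdgfra, a receptor of fibroblasts, and Cdh5, the cadherin of endothelium, had log2 fold changes of 0.58 and 0.63 with the TPM score and of -0.04 and -0.22 with the CPM score. Of 14 carcinoma epithelial markers 4 were higher and 1 lower with the TPM score (median 0.29). With the length trend 1 was higher (0.07) and with the CPM score 0 (0.05). All genes tested were called lower at 16.2% with the TPM score and higher at 1.50% with the length trend. Krt19, a keratin and the 1 that passed with the length trend, was higher by 0.92 (edgeR adjusted p = 0.0014) with the TPM score, by 0.99 (adjusted p = 0.017) with the length trend, and stood at 0.22 without passing with the CPM score.

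Of 18 genes of T cell identity 0 passed in any of the 3 fits, at medians of -0.33, 0.76 and 0.03. The mean log2 CPM of that list ran from 2.46 to 4.86 in high libraries and from 0.66 to 6.45 in low libraries, so that the low class held both extremes. Cd8a, of cytotoxic T cells, ran from 6.08 through 14.5 to 51.5 CPM in high and from 1.66 through 15.4 to 104 CPM in low libraries (log2 fold change -0.21 ± 0.61, SE; edgeR adjusted p = 0.81), and stood at 0.88 with the length trend and 0.29 with the CPM score. Of 8 regulatory T cell markers 2 were higher and 0 lower with the TPM score, beside 13.0% and 16.2% over all genes tested. Those were Lrrc32 and Ikzf2, at 0.69 and 0.49, and 0 of 8 passed in the other 2 fits. Foxp3, of regulatory T cells, had medians of 4.80 CPM in high and 3.72 CPM in low libraries (log2 fold change 0.31, edgeR adjusted p = 0.59), and stood at -0.21 with the CPM score. Cd3d, a subunit of the T cell receptor complex, had medians of 13.6 CPM in high and 24.4 CPM in low libraries (log2 fold change -1.18, edgeR adjusted p = 0.18), and stood at 0.53 with the length trend and 0.25 with the CPM score. The direction of Cd8a, Foxp3 and Cd3d thus turned between fits, and none of them passed in any of the 3 fits.

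Of 12 cytotoxic effector genes 0 passed with the TPM score (median 0.06), and 8 of 12 stood above 0. With the length trend 2 were higher (median 0.88) and with the CPM score 1 (0.63), which was Gzmb. These 2 fits called 1.50% and 0.194% of all genes tested higher. Gzmb, granzyme B of cytotoxic lymphocytes, ran from 9.62 through 23 to 106 CPM in high libraries and from 5.23 through 13.6 to 154 CPM in low libraries. A log2 difference of 0.62 ± 0.26 (SE) missed the threshold with the TPM score (edgeR adjusted p = 0.076) and passed with the length trend (1.29, adjusted p = 0.018) and with the CPM score (1.03, adjusted p = 0.043). Natural killer cell markers had 0 of 10 genes passing with the TPM score and with the CPM score. With the length trend 2 were higher, beside 1.50% of all genes tested.

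The level of B cell markers varied far more between libraries than between classes. Its mean log2 CPM ran from 0.08 through 1.77 to 6.29 in high libraries and from -0.43 through 1.76 to 6.71 in low libraries, and 0 of 15 genes passed in any of the 3 fits. Bank1, an adaptor of B cell receptor signalling, differed by -1.19 ± 0.91 on the log2 scale (SE; edgeR adjusted p = 0.33), and by 0.28 with the length trend. Lymph node stroma and homing genes had 0 of 7 passing in any of the 3 fits. With the B cell level as a term of the TPM score fit, 2463 genes were higher and 2824 lower.

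Macrophage markers were higher in 3 of 17 cases and lower in 1 with the TPM score, in 4 and 0 with the length trend, and in 0 with the CPM score. The share higher with the TPM score was near the 13.0% over all genes tested. With the length trend 1.50% of all genes tested were called higher. Csf1r, the receptor for macrophage colony-stimulating factor, had a log2 fold change of 0.54 (edgeR adjusted p = 0.0018) with the TPM score, and 0.40 and 0.04 without passing in the other fits. Lyz2, lysozyme of myeloid cells, was lower, with a log2 fold change of -0.78 (edgeR adjusted p = 0.015) against 0.12 with the CPM score. Skeletal muscle markers, which mark tissue next to the fat pad, were lower in 3 of 6 cases with the TPM score, in 1 with the length trend and in 0 with the CPM score. Shares called lower over all genes tested were 16.2%, 0.575% and 0% in the 3 fits. Tnni2, a troponin of fast muscle, had medians of 9.05 CPM in high and 20.5 CPM in low libraries (log2 fold change -1.19, edgeR adjusted p = 0.0012), and missed the threshold at -0.97 with the length trend (adjusted p = 0.054) and at -0.21 with the CPM score (adjusted p = 1). The mean level of the list was higher in high than in low libraries in 0 of 6 groups.

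**Figure D5:**
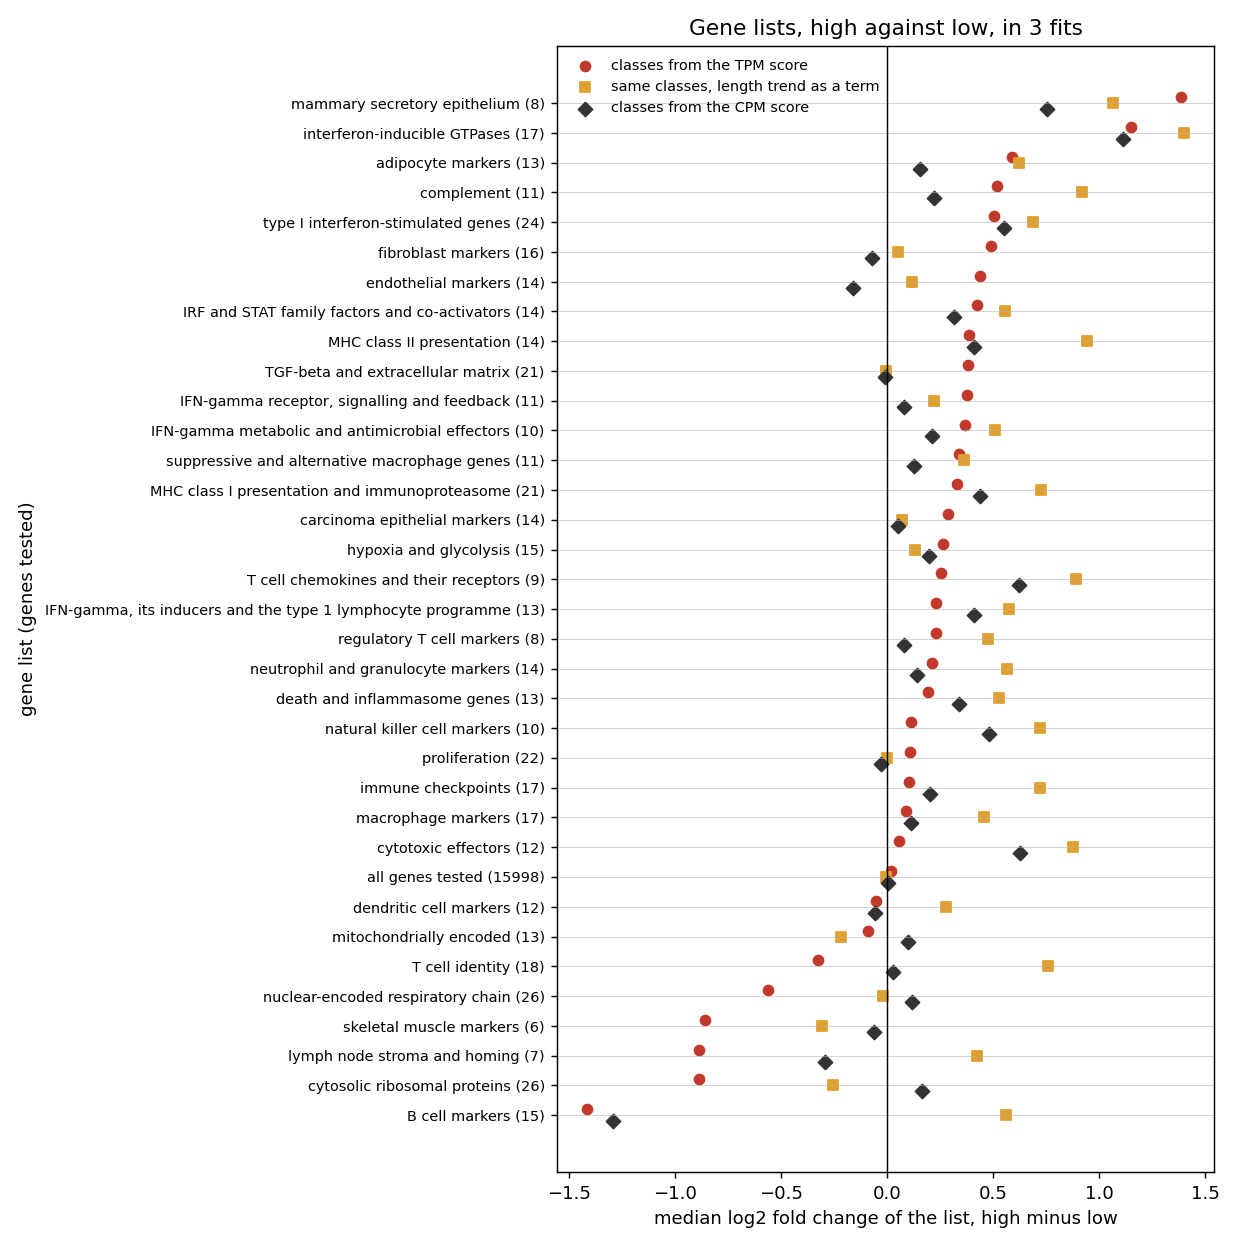
Median log2 fold change (high minus low) of each gene list, with the number of tested genes in brackets, for the classes of the TPM score, the same classes with the length trend as a term, and the classes of the CPM score. The GTPases lie at 1.15, 1.40 and 1.11, and the ribosomal protein genes at -0.89, -0.25 and 0.17.

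The 22 middle libraries, which belong to neither class of the TPM score, were fitted with the TPM score as a continuous term. By edgeR 0 of 15998 genes passed (0%) and 629 had an unadjusted p under 0.05, and by DESeq2 0 passed and 799 had an unadjusted p under 0.05. The genes that were higher in the high libraries had a slope above 0 in 1847 of 2076 cases, and those that were lower had a slope below 0 in 2264 of 2599. Over all genes tested, 7833 of 15998 slopes were above 0. The length trend was not removed from these slopes, and its part in the shared sign was not tested. Of the 17 GTPases 15 had a slope above 0, with a median of 1.12 log2 per unit of score. Of the 31 genes of the CPM score fit 30 had a slope above 0. However, 6 of the 22 middle libraries were high and 3 were low in that fit. These 31 genes were thus chosen partly on the same libraries. The 5 genes whose log2 CPM followed the score most closely within groups over the 22 libraries were Cx3cl1 (r = 0.86), Padi1 (0.81), Angptl2 (0.80), Ccnd1 (0.80) and Lipg (0.79). These r are descriptions over libraries that also share a length trend.

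Whether the high minus low difference itself differed between aged and young mice was tested for every gene, and 0 passed (0%), while 2118 had an unadjusted p under 0.05. The genes of smallest p were Tfrc, the transferrin receptor, Sh2d1b1, a signalling adaptor of natural killer cells, and Gm43118. Tfrc had high minus low differences of 0.13, -0.19 and -0.34 in the aged anti-CTLA4, anti-PD-L1 and isotype groups and of 1.28, 0.67 and 1.09 in the same young groups (edgeR adjusted p of the difference 0.24). For the difference between antibodies 0 genes passed (0%) and 212 had an unadjusted p under 0.05. The genes of smallest p were Sox5, Gzme and Gzmd, the last 2 encoding granzymes, each with an adjusted p of 1. In these tests no gene was shown to differ between ages or antibodies in its relation to the score.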

How the data were processed

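RNA of 52 tumours was sequenced as paired reads of 75 bases from a strand-marking poly(A) kit with 500 ng of RNA, per the labels' protocols. Salmon, DESeq2 1.16.1 and the build mm10 are named, per the submitters' processing notes; how transcripts were summed to genes is not stated there. The authors deposited estimated counts per gene, all whole numbers, and TPM values of the same libraries. For 2644 genes that reached 500 counts in every library, the deposited counts equalled TPM times 1 length per gene to within 0.0015 on the log2 scale. Symbols of GENCODE vM21 were found for 47224 of 47729 identifiers. Total counts per library ran from 9549847 to 53778370.

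TPM chose the libraries; edgeR 4.0.16 (R 4.3.3) tested the deposited counts (filterByExpr, TMM, robust quasi-likelihood fit, terms for group and sequencing batch, 21 residual degrees of freedom). The threshold was an adjusted p under 0.05 (Benjamini-Hochberg, 15998 genes, the 3 that chose the libraries left out). SE is the log2 fold change divided by the root of F. High, middle and low libraries numbered 4, 10 and 8 in batch 1, 6, 7 and 6 in batch 2 and 5, 5 and 1 in batch 3. CPM was scaled by TMM, with a prior count of 2 before taking log2. The procedure was tested on simulated data that held no length trend and no difference between groups or batches. How the procedure behaves under a length trend was not tested.

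The 34 lists held 500 genes, 484 of them tested; some genes stand in more than 1 list. The libraries, members and lists were chosen with earlier results of these data known. Genes named are the 10 higher and 10 lower with the smallest p (mean CPM of 1 or more, predicted models left out), up to 4 with the smallest p per list, a fixed set of 12 (1 of them not reported here), the 3 of smallest p for age and for antibody and the 5 most like the score. Gbp8, Ifi47, Gvin1, Zfp882, genes called in all 3 fits and genes separate in 6 groups were named after their values were seen. Alternatives were DESeq2 1.42.0, other size factors, no filter, no batch term, all libraries, single batches, a replicate block, groups left out, other scores, and the B cell level or the length trend as terms.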

Additional observations from a re-analysis of the deposited data

Results flagged for a closer look

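Library values were examined for a highest or lowest library far from the rest of its group, in 80 combinations of a measure and a group of 7 to 10 libraries. Chance flags about 1 in 20 such combinations, and 8 were flagged here. No explanation was weighed.

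Aged anti-CTLA4 replicate 1, a low library, stood apart as the lowest of its group in 3 measures. Its score was 5.26 with 6.17 next, its Ifng -0.94 with 0.21 next and its Cd274 3.94 with 4.75 next, the last 2 in log2 CPM. Aged anti-PD-L1 replicate 4, also a low library, had the lowest Ifng of its group at -2.35 log2 CPM with -0.13 next, and the lowest Ciita at 2.22 with 4.31 next. Nos2 was highest in aged anti-PD-L1 replicate 2, a middle library, at 4.36 log2 CPM with 2.93 next, and lowest in aged isotype replicate 2, a low library, at -0.32 with 1.95 next. Isg15 was lowest in young anti-PD-L1 replicate 5, a high library, at 4.91 log2 CPM with 5.95 next.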

How the results depend on the processing

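Relative to 2076 genes higher and 2599 lower, the counts were within 1.5 times under DESeq2, other size factors, no filter, no batch term, all 52 libraries with 3 classes or a continuous score, a score pseudocount of 0.1, a score without Cxcl9 or Gbp2, the B cell term, and without aged isotype replicate 7, libraries of a TMM factor under 0.8, or either aged antibody group. They were 0 higher and 0 lower in batch 1 by edgeR (559 at an unadjusted p under 0.05), 1096 higher in batch 2, and 759 and 604 in batch 3. Left out in turn, aged isotype left 1128 and 1658, young anti-CTLA4 1370 higher, young anti-PD-L1 610 and 1302, and young isotype 1111 higher. A score without Irf1 gave 160 and 43. Replicate numbers did not pair the libraries: residuals of 113 same-numbered pairs had a median r of 0.009, with 44 over 0.1. Those of 1004 other pairs had a median r of -0.005, with 369 over 0.1. With the replicate number as a block, 0 and 3 genes passed by edgeR (4853 at an unadjusted p under 0.05). The length trend as a term gave 240 and 92, and 156 and 57 without libraries of a TMM factor under 0.8. The CPM score gave 31 and 0, with the length trend 90 and 0, without those libraries 39 and 0, without the batch term 26 and 0, and as a continuous score 177 and 1. These 4 CPM variants and the 156 and 57 were chosen after seeing the data. In the middle libraries and for age and antibody, 0 genes passed under each alternative run, with 486 to 1732 genes in the middle libraries, 2248 for age and 468 for antibody at an unadjusted p under 0.05.

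Log2 fold changes of genes called with the TPM score or under the alternative changed sign as follows, where the cause was not tested. With the CPM score they were 0.32 for Rps12-ps10, 0.08 for Snord104, 0.05 for Pcgf1, 0.01 for Il18, 0.34 for Il15, 0.03 for Rfxank, 0.12 for Lyz2, -0.04 for Pdgfra, -0.22 for Cdh5, 0.20 for Rps14 and 0.10 for Ndufa4. Under that score and no batch term they were 0.01 for Acyp1, 0.35 for Rps12-ps10, 0.06 for Snord104, 0.06 for Pcgf1, 0.0045 for Il18, 0.33 for Il15, 0.03 for Rfxank, 0.13 for Lyz2, -0.06 for Pdgfra, -0.25 for Cdh5, 0.22 for Rps14 and 0.11 for Ndufa4. Under it and the length trend they were 0.13 for Rps12-ps10, 0.24 for Il15, -0.12 for Cdh5 and 0.009 for Rps14. Under it and without libraries of a TMM factor under 0.8 they were 0.15 for Rps12-ps10, 0.27 for Il15, 0.0098 for Lyz2, -0.19 for Cdh5, 0.10 for Rps14 and 0.02 for Ndufa4. With the continuous CPM score they were 0.01 for Rps12-ps10, 0.18 for Il15 and -0.0032 for Cdh5. Among called genes, with the length trend Il15 was 0.06, and without those libraries Il18 was 0.13 and Il15 0.09. In batch 3, where 1 high and 1 low library of aged isotype are compared, Cd8a was 4.17, Cd3d 2.14 and Bank1 3.13. Tfrc was -0.18 in batch 1 and -0.54 in batch 3. Among named genes called in neither, Cd8a, Cd3d and Isg15 also turned with the CPM score and with the length trend, Foxp3 with the CPM score and Bank1 with the length trend.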
